A study of Mus musculus with 4 samples.

Results

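Gfap-low Agt-low astrocytes are brain astrocytes in which almost no RNA was captured of Gfap, which encodes the intermediate filament glial fibrillary acidic protein, or of Agt, which encodes angiotensinogen. They were chosen cell by cell on measured values. A cell had 1000 to 22005 unique molecular identifiers (UMIs, each a captured RNA molecule), a mitochondrial share of up to 15.8%, and at least 30 UMIs per 10000 over the astrocyte genes Slc1a2, Slc1a3, Aldoc, Plpp3, Gja1 and Aqp4. It also had at most 6 UMIs of the endothelial genes Cldn5, Flt1 and Ly6c1, under 15 per 10000 of the microglial genes C1qa, C1qb and C1qc, at most 3 of the ependymal genes Ccdc153 and Tmem212, at most 1 of the division genes Mki67 and Top2a, at most 4 of Gfap and at most 1 of Agt. This rule held for 2470 of 36876 barcodes. They made up 2470 of the 5035 cells that met every limit but those on Gfap and Agt, which are called gated astrocytes here. The other gated astrocytes were 2486 Agt-expressing cells, with at least 2 Agt UMIs and at most 4 of Gfap, and 79 Gfap-high cells, with at least 5 Gfap UMIs.

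The cells came from whole brains of 4 C57BL/6J mice, each a single droplet library, so that every combination of age and diet had 1 mouse. The adult mice were 3 to 4 months old and the aged mice 23 to 24 months old when the experimental diets began. According to the study's methods they ate the diets for several weeks, so both ages were older when the brains were taken. In each age, 1 mouse ate a low fiber diet with 1% cellulose and 0% inulin, and 1 a high fiber diet with 1% cellulose and 5% inulin, a fermentable plant fiber. All were male according to the study's methods, the adult mice were bred in house, and the aged mice came from a National Institute on Aging colony, so age and origin cannot be told apart. All brains were dissociated with enzymes at 37°C, and myelin and dead cells were removed, before cells were captured. Values for the 4 mice are given below in the order adult 0%, adult 5%, aged 0% and aged 5% inulin.

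Astrocytes take up glutamate and potassium from around synapses, supply neurons with lactate and cholesterol, and contact blood vessels with their endfeet. Gfap is abundant in fibrous astrocytes of white matter and of the brain surface, and is low in many protoplasmic astrocytes of gray matter. Astrocytes also keep the regional identity of the progenitors that made them: Lhx2 and Emx2 encode transcription factors of the developing forebrain, the Irx genes and Nkx6-2 factors of more caudal territories, and Agt is known to be abundant in astrocytes outside the telencephalon.

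The rule gave 628, 775, 536 and 531 cells in the 4 mice, with 4698606, 5657531, 3584115 and 3458686 UMIs in all. Median depth per cell was 7404, 7304, 6576 and 6567 UMIs, and the mitochondrial share had medians of 6.76%, 6.18%, 6.77% and 6.63%. Of the cells' barcode sequences, 16 were also found in another mouse, but none was a Gfap-low Agt-low astrocyte in more than 1 mouse. Of the members, 1799 had no Agt UMI and 671 had 1, while 328 cells just outside had 2, and 2044 had no Gfap UMI against 20 with 4 and 6 cells just outside with 5.

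Markers that the rule did not use were those of astrocytes in every mouse. Slc7a10, which encodes a neutral amino acid transporter, was detected in 82.7% ± 2.58 of the cells (SD, n = 4 mice), against 4.11% ± 0.673 of endothelial cells from the same libraries. Ntsr2, a neurotensin receptor gene, was detected in 92.0% ± 2.13 against 5.50% ± 0.453. The endothelial cells and microglia used for comparison here and below were chosen with the rule's astrocyte genes under the limit for astrocytes. Low Slc7a10 and Ntsr2 in the endothelial cells was therefore set in part by that choice. The contrast is thus not an independent test of the label. Median depth was 6971 UMIs in the astrocytes and 6223 in the endothelial cells. At a fixed depth of 2000 UMIs per cell, which 183 of the astrocytes did not reach and were therefore not counted, the shares were 60.2% and 79.6% in the astrocytes and 1.34% and 1.67% in the endothelial cells. Slc1a2, the main glutamate transporter gene, and Aldoc, a glycolytic enzyme gene, belong to the rule and were detected in 97.6% and 96.0% of the cells.

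The label held less well at the lower edge of the astrocyte limit. The 135 cells with 30 to 60 UMIs per 10000 of the rule's astrocyte genes had Ntsr2 in 23.0% of cells, and their leading genes included Apod, Mgp, Npy, 6330403K07Rik, Slc38a2 and Ccn3, of which Npy encodes neuropeptide Y. They numbered 62, 28, 19 and 26 in the 4 mice, so that the adult mouse on 0% inulin held the most. Ntsr2 was detected in 75.3% of the 81 cells at 60 to 100 per 10000 and in 96.7% of the 2254 cells from 100 per 10000. Cells under 100 made up 8.74% of the members and 8.07% of their UMIs, and values without them are given beside named calls that they change.

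Gfap-low Agt-low astrocytes were 44.5%, 49.4%, 53.7% and 50.2% of the gated astrocytes of the 4 mice, with exact 95% binomial intervals (counting error only) of 41.9 to 47.2%, 46.9 to 51.9%, 50.6 to 56.8% and 47.2 to 53.3%. Both aged mice had a larger share than either adult mouse under these limits, the means being 47.0% ± 3.41 (SD, n = 2) for the adult and 52.0% ± 2.45 for the aged mice. The difference of 5.02 percentage points gave p = 0.33 in an exact two-sided permutation test, the smallest p that 2 mice against 2 can give. The ages overlapped with limits in proportion to depth, with at most 1 Gfap UMI and with strict limits on other cell types (exact permutation p = 0.667 in each). Of all 28833 cells within the depth and mitochondrial limits, adult mice had 9.06% ± 0.520 and aged mice 8.03% ± 0.956 (exact permutation p = 0.667). Shares by diet were 49.1% on 0% and 49.8% on 5% inulin (exact permutation p = 1.0).

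**Figure D1:**
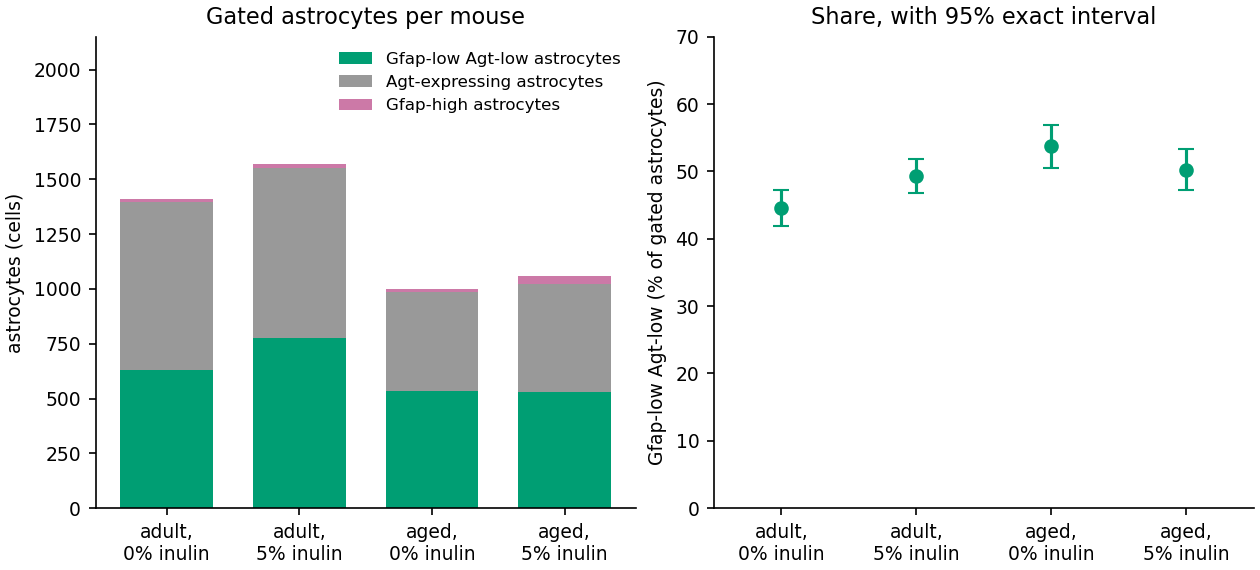
Left, number of gated astrocytes in each of the 4 mice as stacked bars, divided into Gfap-low Agt-low, Agt-expressing and Gfap-high cells. Right, Gfap-low Agt-low cells as a percentage of gated astrocytes, with points for mice and bars for exact 95% binomial intervals, from 44.5% in the adult mouse on 0% inulin to 53.7% in the aged mouse on 0% inulin.

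The first comparison asked how the Gfap-low Agt-low astrocytes differed from the Agt-expressing astrocytes of the same brains in genes other than those of the rule. Most listed genes of the telencephalon were higher in them, and most listed genes of the diencephalon, brainstem and spinal cord were lower. UMIs were summed per mouse and class, and edgeR was fitted to all genes with the mouse as a block. A gene was called at a Benjamini-Hochberg adjusted p under 0.05 and a fold change over 1.5. Of 14011 genes tested, 1544 were called (11.0%), 811 of them higher (5.79%) and 733 lower (5.23%) in the Gfap-low Agt-low cells. Levels in the compared astrocyte classes are in CPM (UMIs per 1000000 UMIs, normalised by trimmed mean of M-values, TMM, within each comparison), and fold changes are on the log2 scale. Some levels below are also called CPM but are UMIs per 1000000 UMIs without TMM. These are levels by Agt UMIs, levels in cells with most Crym, sums over lists of other cell types, and all levels in endothelial cells and microglia.

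Forebrain transcription factors were among the higher genes. Lhx2 (chr2:38339281-38369733, plus strand, GRCm38) had levels of 251, 274, 258 and 269 in the Gfap-low Agt-low cells of the 4 mice and 58.9, 70.2, 104 and 119 in the Agt-expressing cells. The classes did not overlap, and the Agt-expressing cells of both aged mice were above those of both adult mice (log2 fold change 1.64 ± 0.12 (SE), adjusted p = 8.50e-08). Emx2 (chr19:59458372-59465357, plus strand) had levels of 71.4, 80.1, 82.6 and 76.9 against 18.9, 19.9, 35.3 and 28.9, a 3.16-fold difference (log2 fold change 1.66 ± 0.11 (SE), adjusted p = 4.77e-08). Of 7 telencephalic genes tested, 6 were higher and none lower, with a median log2 fold change of 1.19 beside 0.00286 over all genes. Also higher were Nr2e1 (1.19), Otx1 (1.08) and Mfge8 (0.80), the last encoding a secreted protein that marks cells for engulfment. Lfng, which modifies Notch receptors, was not called (-0.31).

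Genes of the diencephalon, brainstem and spinal cord went the other way: of 12 tested, 10 were lower and Pax6 was higher, with a median of -1.94. The Iroquois factor Irx5 (chr8:92357625-92376286, plus strand) had levels of 3.85, 4.28, 8.32 and 5.07 in the Gfap-low Agt-low cells and 50.3, 52.2, 46.0 and 40.9 in the Agt-expressing cells (log2 fold change -3.21 ± 0.17 (SE), adjusted p = 3.05e-09). Irx1, Irx2 and Irx3 were each under 5 CPM in every mouse against at least 20 in the Agt-expressing cells, with log2 fold changes of -3.55, -3.52 and -3.69. Itih3 (chr14:30908572-30923760, minus strand), which encodes a hyaluronan-binding serum protein, was far more abundant and had levels of 185, 176, 226 and 194 against 1132, 1072, 1126 and 1116, a 5.72-fold difference (log2 fold change -2.52 ± 0.06 (SE), adjusted p = 1.03e-12). The matricellular protein gene Sparc had levels of 378, 250.2, 264 and 297 against 1463, 1424, 1239.7 and 1127 (log2 fold change -2.15 ± 0.08 (SE), adjusted p = 8.02e-11). Otx2 (-1.72), Meis1 (-1.25) and Nkx2-2 (-1.18) were also lower, and Pax6, a factor of several brain regions that include the developing cortex, had levels of 114, 128, 156 and 137 against 62.1, 70.2, 84.7 and 79.0 (log2 fold change 0.86 ± 0.06 (SE), adjusted p = 5.45e-08).

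Cerebellar genes were divided, with En1, En2, Pax3 and A2m lower and Zic2 and Hopx higher of 10 tested (median -0.53). Over all genes, 5.79% were higher and 5.23% lower. All 3 olfactory bulb genes tested were higher, namely Crym, Islr and Kcnk2, of which Crym encodes a thyroid hormone-binding protein; without the cells under 100 per 10000 all 3 were still called and the median went from 1.53 to 0.80. Of 7 genes listed for cortical layers, Chrdl1, Id1, Eogt and Spry1 were higher and Paqr6 was lower (median 0.70); without those cells Id1 (0.47) was within the fold limit. Chrdl1, which encodes a secreted antagonist of bone morphogenetic proteins, had levels of 100.5, 121, 117 and 121 against 14.5, 19.7, 36.7 and 29.6 (log2 fold change 2.28 ± 0.13 (SE), adjusted p = 8.00e-09).

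**Figure D2:**
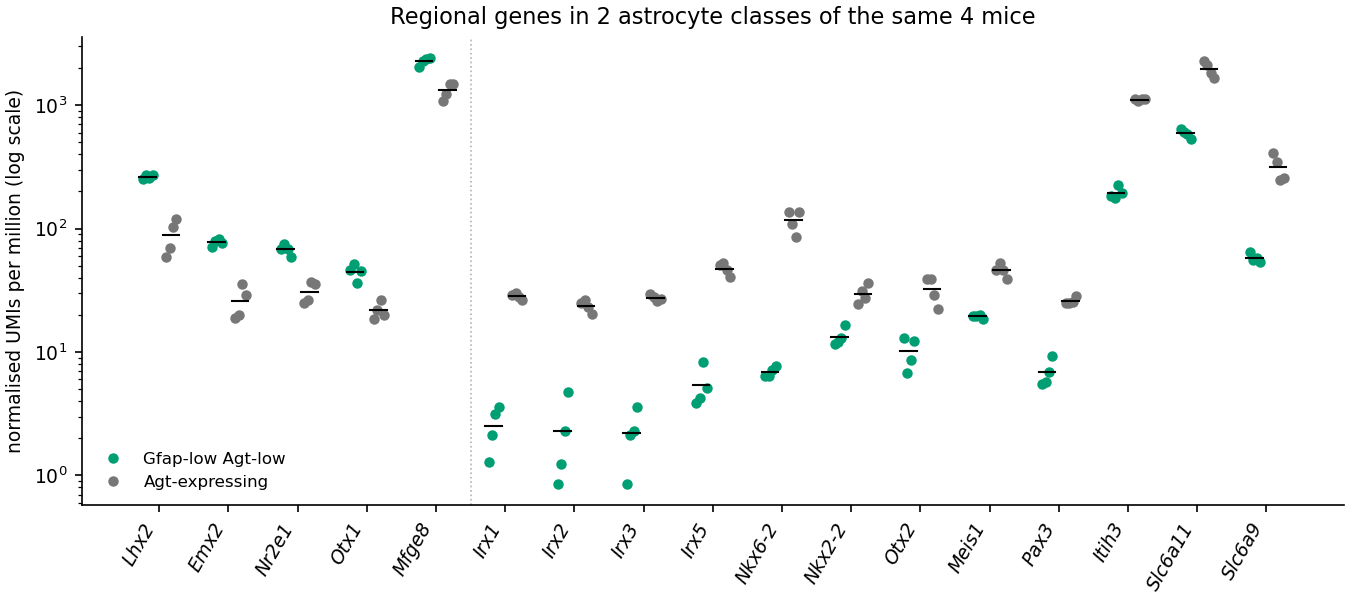
Levels of 17 genes in CPM on a log axis, in Gfap-low Agt-low (green) and Agt-expressing (gray) astrocytes, with a point per mouse and a line at the mean of 4 mice. Left of the dotted line are genes of the telencephalon, each higher in the green class in every mouse. The other genes shown are lower in it in every mouse. Not shown are Lfng, a telencephalic gene that was not higher, and Pax6, which was higher though listed for diencephalon, brainstem and spinal cord.

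Among calls with a mean of at least 20 CPM whose classes did not overlap, the largest differences in either direction included genes outside the region lists. Igsf1, an immunoglobulin superfamily gene, had levels of 5.13, 2.50, 7.17 and 3.28 in the Gfap-low Agt-low cells and 149.8, 133, 127 and 119 in the Agt-expressing cells (log2 fold change -4.93 ± 0.14 (SE), adjusted p = 5.12e-12). Nkx6-2 (chr7:139579376-139582797, minus strand), a homeobox factor of the ventral neural tube, had levels of 6.41, 6.42, 7.17 and 7.75 against 136, 108, 85.0 and 136 (log2 fold change -4.08 ± 0.11 (SE), adjusted p = 3.91e-12). Sfrp5, which encodes a secreted inhibitor of Wnt signals, was 11.3-fold lower (log2 -3.50), and the noncoding transcripts B230323A14Rik and A330076C08Rik had log2 fold changes of -4.38 and -3.63. In the other direction, Crym and Chrdl1, described above and below, were among the 5 largest differences within these limits. So was Pde10a, a cyclic nucleotide phosphodiesterase gene known from the striatum, with levels of 168, 139, 60.3 and 55.4 against 26.1, 36.7, 12.3 and 13.7 (log2 fold change 2.25 ± 0.11 (SE), adjusted p = 2.15e-09). The remaining 2 of these 5, 6330403K07Rik and Ccn3, were most abundant in the cells under 100 astrocyte UMIs per 10000. Without cells under 100 per 10000, the log2 fold change of 6330403K07Rik went from 3.25 to 1.10, and that of Ccn3 from 2.24 to 0.01. The first was still called and the second was not. These cells held 80.1% and 88.1% of the members' UMIs of the 2 genes.

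Lhx2, Emx2, Itih3 and Sfrp5 changed by degrees across the Agt limit. In cells with 0, 1, 2, 3 to 4, 5 to 9 and 10 or more Agt UMIs (1799, 671, 328, 362, 563 and 1233 cells with at most 4 Gfap UMIs), the mean level of Lhx2 over the 4 mice was 259, 257, 219.7, 174, 74.8 and 15.1 CPM. Cells with 1 Agt UMI were thus close to those with none, and the cells with 2, just outside the limit, had a level between those of the members and of the cells with 3 or more. Emx2 had 79.3, 68.9, 61.4, 52.2, 24.0 and 4.55 CPM over the same bins. Itih3 went the other way, with 182, 216, 324, 476, 838 and 1646 CPM, as did Sfrp5 with 13.5, 20.6, 41.5, 77.5, 159 and 250.0. For Nkx6-2, cells with 0, 1 and 2 Agt UMIs had 5.75, 9.54 and 6.49 CPM, and those with 3 to 4 had 33.2. Its level thus did not rise at every step. Agt was used to place the cells, and a cell's depth affects its Agt count, so these levels are given without a test; median depth fell from 7415 UMIs at 1 Agt UMI to 5915 at 5 to 9.

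**Figure D3:**
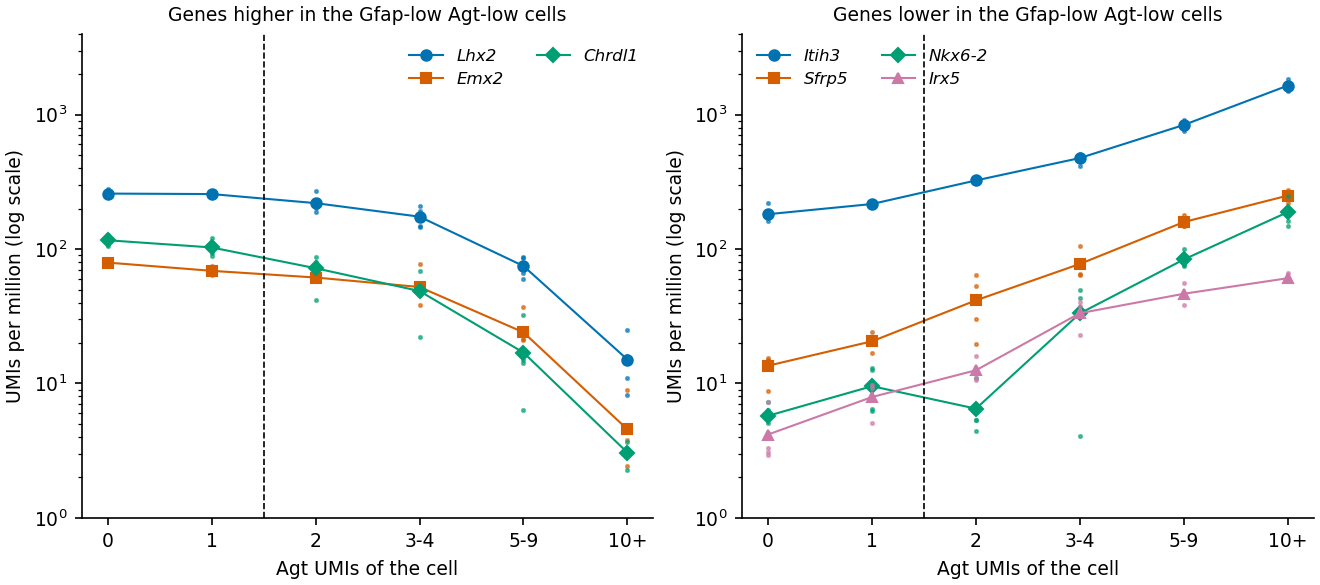
Mean level over 4 mice (large symbols and lines) and level in each mouse (small points), in CPM on a log axis, by the number of Agt UMIs in the cell; the dashed line is the limit between Gfap-low Agt-low and Agt-expressing astrocytes. Lhx2, Emx2 and Chrdl1 were lowest in cells with 10 or more Agt UMIs, where Itih3, Sfrp5, Nkx6-2 and Irx5 were highest.

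Among cells from 100 per 10000 and at least 2000 UMIs, 154 of the members (7.28%) had a UMI of any of Irx1, Irx2, Irx3, Irx5, En1, En2 and Nkx6-2, against 61.7% of the Agt-expressing astrocytes. After thinning to 2000 UMIs, a UMI of Lhx2 or Emx2 was found in 21.0% ± 9.77 of those 154 members and in 48.9% ± 1.24 of the other 1961 (SD, n = 4 mice). The members with a caudal UMI thus held these genes less often in each mouse, at 24.3%, 32.6%, 9.68% and 17.5% against 48.4%, 49.4%, 50.3% and 47.4%. These values describe single cells of low counts and were not tested.

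Transporter and channel genes differed in a few members of their lists. Slc6a11, which encodes a transporter that clears the transmitter GABA, had levels of 647, 607, 583 and 532 in the Gfap-low Agt-low cells and 2295, 2099, 1812 and 1660.3 in the Agt-expressing cells (log2 fold change -1.72 ± 0.05 (SE), adjusted p = 4.33e-12). Slc6a9, the glycine transporter gene, had levels of 64.8, 55.8, 57.7 and 53.3 against 408, 347, 249 and 256 and was 5.43-fold lower (log2 fold change -2.44 ± 0.09 (SE), adjusted p = 4.84e-11). Both were among the 3 lower genes of 12 of transmitter uptake and metabolism, none of which was higher. Of 16 ion, water and gap junction genes, 4 were lower: the potassium channel genes Kcnj10 (-1.08) and Kcnj16 (-0.64), the sodium pump subunit gene Atp1b2 (-0.82) and the bicarbonate transporter gene Slc4a4 (-1.07). Of 21 receptor genes, P2ry1, Grm5, Gabbr2 and Ednrb were lower and Grm3, Htr2b and Fgfr2 higher, where 11.0% of all genes were called; from 100 per 10000 Kcnj16 (-0.55) was within the fold limit and Htr2b was not tested. The astrocyte markers outside the rule, Slc7a10 (-0.57, adjusted p = 5.18e-06) and Ntsr2 (-0.44, adjusted p = 1.93e-06), were lower by less than the 1.5-fold limit.

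The metabolic lists differed in the number of their calls between the classes, where 5.79% of all genes were called higher and 5.23% lower. Of 24 genes of cholesterol synthesis, only Ebp was called, and it was lower, although 22 of the 24 log2 fold changes were above 0 (median 0.23). From 100 per 10000, Idi1 was called higher beside Ebp, and the median was 0.29. Of 22 genes of glycolysis, glycogen and lactate, the glycogen-targeting subunit gene Ppp1r3g was higher, with 164, 206, 203 and 222 against 52.8, 66.2, 83.7 and 83.5 (2.82-fold, adjusted p = 1.07e-09), and Slc2a1, Pfkfb3 and Pygm were lower; from 100 per 10000 Slc2a1 (-0.58) and Pfkfb3 (-0.57) were within the 1.5-fold limit and Pdk4 was called higher. Lists of heat shock and circadian clock genes had no call.

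Immediate early genes, which neurons and glia switch on within minutes of a stimulus, were higher in the Gfap-low Agt-low cells: 13 of 23 tested were called higher, where 5.79% of all genes were, and none lower (median 0.95). Fos had levels of 97.5, 85.1, 79.8 and 68.8 against 38.9, 36.5, 34.3 and 25.8 (log2 fold change 1.29 ± 0.07 (SE), adjusted p = 6.35e-09), and Nr4a1 had 48.3, 26.8, 19.5 and 14.3 against 8.44, 9.34, 6.52 and 4.12 (log2 fold change 1.92 ± 0.17 (SE), adjusted p = 9.00e-07). Without the cells under 100 per 10000, 11 of the 23 were higher, where 4.47% of all genes were, and the median was 0.55.

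Crym was concentrated in few cells. The 142 members with at least 5 Crym UMIs (33, 43, 37 and 29 in the 4 mice) were 5.75% of the cells and held 96.2% of the Crym UMIs. Compared with the other members, they had less Otx1 (2.05 ± 2.42 against 47.1 ± 6.76 CPM, SD, n = 4 mice), less Chrdl1 (29.7 ± 18.0 against 119 ± 8.88) and less Pax6 (62.2 ± 10.9 against 136 ± 17.6), and more of the differentiation inhibitor gene Id3 (1149.7 ± 225 against 464 ± 38.8). Their Lhx2 level was 266 ± 56.9 against 258 ± 10.0, within the spread between mice. The other called olfactory bulb genes were also within it, Islr at 24.8 ± 19.6 against 34.2 ± 21.2 and Kcnk2 at 85.6 ± 36.1 against 85.3 ± 3.07. Slc7a10 was lower in the cells with at least 5 Crym UMIs, at 296 ± 60.5 against 505 ± 23.7. These cells and genes were chosen after their values were seen, and no test was run.

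Against the 79 Gfap-high astrocytes, which were only 12, 20, 14 and 33 cells in the 4 mice, 1506 of 12578 genes were called (12.0%), 781 higher and 725 lower. Myoc, which encodes a secreted protein abundant in astrocytes of the brain surface, had levels of 7.36, 4.73, 2.93 and 6.31 in the Gfap-low Agt-low cells and 853, 2402, 3190.1 and 1761 in the Gfap-high cells (log2 fold change -8.45). By the same naming limits, Slc36a2 (-6.07), Cidea (-5.35), Cnmd (-5.00) and Fxyd6 (-4.89) followed. Largest in the other direction were Rpe65 (6.09), Crym (3.92), S100a9 (3.61), S100a8 (3.29) and Ccn3 (3.18). A single cell held 22.5% and 24.3% of the members' UMIs of S100a9 and S100a8. From 100 per 10000, Ccn3 was at 0.66 and was not called. C4b, a complement gene, had levels of 48.9, 39.9, 96.6 and 85.0 against 284, 319, 709 and 599, a 7.07-fold difference that held in every mouse. The intermediate filament gene Vim had levels of 133, 144, 159.8 and 188 against 377, 488, 487 and 813 (log2 fold change -1.79 ± 0.12 (SE), adjusted p = 5.09e-47), and Id3 had 521, 486, 545 and 558 against 1080.4, 927, 1175 and 1533 (log2 fold change -1.15 ± 0.10 (SE), adjusted p = 9.78e-26). In all, 11 of 13 genes listed as accompanying Gfap were lower (median -2.13, beside 0.08 over all genes). Hes5, a target of Notch signals, was higher, with 691, 859, 1085 and 1201 against 490.4, 264, 264 and 631 (log2 fold change 1.22 ± 0.12 (SE), adjusted p = 1.03e-22), as were 5 of 7 telencephalic genes and 7 of 18 circadian clock genes, or 3 and 6 without the cells under 100 per 10000. Of the interferon response genes, 12 of 24 were lower, but 4 of 23 without the cells under 100 per 10000. With cells thinned to 2000 UMIs, 364 genes were called.

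The age comparison asked which genes differed between the Gfap-low Agt-low astrocytes of the 2 adult and the 2 aged mice, with diets pooled. Genes induced by interferon, the complement gene C4b and the RNA-binding protein genes Cirbp and Rbm3 were higher in the aged mice, and Pde10a and a heat shock gene lower. Of 13369 genes tested with edgeR, 47 were called (0.352%), 29 of them higher (0.217%) and 18 lower (0.135%) in aged mice. In all 47 the ages did not overlap, which also held for 44.1% of all genes tested. C1qa, among the 47, belonged to the rule, and 14 had a mean under 20 CPM. The count rested on having both aged mice: it was 2, neither among the 47, without the aged mouse on 0% inulin and 0 without the one on 5% inulin, while it was 173 and 541 without either adult mouse. DESeq2 called 20 genes, 15 of them among the 47. With diet as a block, 161 genes were called, among them all 47, and the balance turned to 51 higher and 110 lower.

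Interferon response genes, which cells transcribe when type I or type II interferon reaches its receptor, gave 5 of the higher calls. Ifit3 (chr19:34583531-34588731, plus strand, GRCm38), which encodes an antiviral RNA-binding protein, had levels of 33.0, 28.9, 77.0 and 80.3 CPM in the 4 mice. Both aged mice were more than 2 times the adult mice (log2 fold change 1.35 ± 0.11 (SE), adjusted p = 6.99e-04). Bst2 (chr8:71534255-71537456, minus strand), which encodes tetherin, had 18.0, 13.0, 44.6 and 50.4 (log2 fold change 1.63 ± 0.16 (SE), adjusted p = 0.00242). Ifit1 (chr19:34640871-34650009, plus strand), a neighbor of Ifit3 with a related protein, was low in every mouse, at 8.67, 4.40, 21.6 and 18.5 (log2 fold change 1.64 ± 0.29 (SE), adjusted p = 0.0454). Lgals3bp, which encodes a secreted galectin-binding glycoprotein, had 39.1, 36.1, 66.0 and 82.4 (log2 fold change 0.98 ± 0.13 (SE), adjusted p = 0.0137). Ifi27 had 166, 136, 222 and 278 (log2 fold change 0.73 ± 0.13 (SE), adjusted p = 0.0454), with a smaller difference at the highest level of the list.

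In the list as a whole, 5 of 25 tested were higher and none lower, where 0.217% of all genes were higher. All 25 log2 fold changes were above 0, and their median was 0.73 beside -0.00109 over all genes. Oasl2, at 7.40, 5.46, 14.8 and 15.8, missed the threshold (adjusted p = 0.066). From cells of at least 100 per 10000, 10 of 24 were higher, where 0.83% of all genes were higher, and the median was 0.80; those added to the calls were Isg15, Usp18, Oasl2, Ifitm3 and Xaf1. Ifit3b, named after its values were seen as a near-identical copy of Ifit3 whose reads can be split with it, was at 19.9, 23.4, 35.8 and 42.8 (log2 fold change 0.85 ± 0.15 (SE), adjusted p = 0.0442). In endothelial cells of the same libraries, Bst2 was at 189, 243, 208 and 214 and Ifit3 at 83.9, 113, 129 and 129 CPM, above the astrocytes in every mouse, and Lgals3bp at 33.3, 40.1, 45.6 and 53.8, below them in both aged mice. In microglia, Bst2 was at 237, 204, 356 and 389, Ifit3 at 14.4, 12.9, 64.0 and 63.9 and Lgals3bp at 92.4, 74.4, 239 and 278, also with both aged mice above both adult mice. Ifit1 was at 142, 169, 177 and 182 CPM in endothelial cells and 5.26, 4.62, 26.4 and 18.0 in microglia. The part of RNA from these cells in the astrocytes' values was not tested.

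The promoter windows of the 3 called interferon genes with the largest fold changes are shown because 4 of the 5 called interferon genes had an entry in RefSeq (GRCm38.p6) and these 3 held the core of the interferon-stimulated response element. Each window runs from 250 bases before to 50 bases after the annotated start and is written along the gene's own strand, 5′ to 3′, with matches to GAAANNGAAA on either strand in capitals (TTTCNNTTTC where the match is on the other strand).
Ifit3 (chr19:34583279-34583578, plus strand): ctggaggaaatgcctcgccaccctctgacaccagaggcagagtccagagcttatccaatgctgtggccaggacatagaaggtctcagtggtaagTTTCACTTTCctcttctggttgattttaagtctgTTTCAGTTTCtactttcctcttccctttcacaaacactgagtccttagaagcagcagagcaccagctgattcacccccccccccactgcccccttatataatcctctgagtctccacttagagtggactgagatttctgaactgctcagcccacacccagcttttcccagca
Ifit1 (chr19:34640639-34640938, plus strand): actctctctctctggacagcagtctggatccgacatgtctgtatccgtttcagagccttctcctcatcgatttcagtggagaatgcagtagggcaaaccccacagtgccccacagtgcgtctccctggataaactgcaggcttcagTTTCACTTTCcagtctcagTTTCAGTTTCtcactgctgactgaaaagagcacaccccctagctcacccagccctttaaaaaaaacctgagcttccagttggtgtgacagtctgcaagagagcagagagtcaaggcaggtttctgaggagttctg
Bst2 (chr8:71537423-71537722, minus strand): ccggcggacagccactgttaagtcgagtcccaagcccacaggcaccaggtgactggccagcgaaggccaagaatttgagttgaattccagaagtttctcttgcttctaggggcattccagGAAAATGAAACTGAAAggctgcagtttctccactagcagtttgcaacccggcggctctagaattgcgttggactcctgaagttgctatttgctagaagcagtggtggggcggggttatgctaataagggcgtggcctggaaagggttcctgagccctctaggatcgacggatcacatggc
All 3 windows had 2 matches, which overlap in Bst2, and the window of Lgals3bp had none. The letters were found in 10 of the 20 interferon list genes that were tested by age and had a window, in 2.91% of the 9694 genes tested by age that had one, and in 3.44% of all 32851 windows. A match is a description of the sequence, not a measured binding site.

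A single gene each was called, and higher, on the lists of MHC class I presentation and complement, where 0.217% of all genes were higher. Psmb8, an interferon-inducible subunit of the immunoproteasome, had levels of 11.4, 11.6, 23.6 and 24.6 (log2 fold change 1.06 ± 0.18 (SE), adjusted p = 0.0408). It was the called gene among 18 of MHC class I presentation, of which 17 had log2 fold changes above 0 (median 0.46). Psmb8 was at 130, 187, 183 and 168 CPM in endothelial cells and 236, 246, 300 and 316 in microglia. The part of their RNA in the astrocytes' values was not tested. From cells of at least 100 per 10000, B2m, H2-D1 and Tap1 were called higher and Psmb8 was not, where 0.83% of all genes were higher. C4b (chr17:34728380-34743882, minus strand), an early component of the complement cascade, had levels of 47.8, 38.6, 93.8 and 82.9 in the 4 mice. The aged mice did not overlap the adult mice (log2 fold change 1.04 ± 0.13 (SE), adjusted p = 0.00733), while endothelial cells had 0.721, 2.76, 5.61 and 9.61 CPM and microglia 19.9, 15.2, 30.9 and 44.0, both lower but also with the aged mice highest. C4b was the called gene among 6 complement genes tested, of which 3 had log2 fold changes above 0 (median -0.23).

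Cirbp and Rbm3, whose RNA-binding proteins are known to be induced by cold, were both higher; Rbm3 was named after its values were seen. Cirbp (chr10:80165985-80172786, plus strand) had levels of 56.2, 69.8, 132 and 131 (log2 fold change 1.06 ± 0.11 (SE), adjusted p = 0.00318) and Rbm3 107, 108, 161 and 174 (log2 fold change 0.64 ± 0.09 (SE), adjusted p = 0.0242). In the same libraries Cirbp had 34.5, 40.2, 87.8 and 91.3 CPM in endothelial cells and 50.6, 57.3, 87.5 and 76.2 in microglia, and Rbm3 had 185, 204, 343 and 349 CPM in endothelial cells and 178, 179, 349.7 and 370.4 in microglia. Hsph1, which encodes a heat shock protein of the HSP110 family, was lower in aged mice, with 46.1, 43.5, 28.7 and 23.2 in the astrocytes (log2 fold change -0.79 ± 0.14 (SE), adjusted p = 0.0435) and 96.0, 75.2, 20.9 and 21.9 in endothelial cells. Of 16 heat shock genes Hsph1 was the called one, where 0.135% of all genes were lower. All 16 log2 fold changes were below 0 (median -0.24). Cirbp, Rbm3 and Hsph1 thus moved in the same direction in the cell types given.

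The largest fold changes among genes with a mean of at least 20 CPM were in Igkc and a noncoding RNA gene. C130073E24Rik (chr8:50743291-50916997, minus strand), a long intergenic noncoding RNA gene, had levels of 4.23, 9.34, 71.4 and 61.8 and was 9.52-fold higher in aged mice (log2 fold change 3.25 ± 0.23 (SE), adjusted p = 3.11e-04). It was found in 13.2% of the members, and was under 1 CPM in endothelial cells and microglia in every mouse. Igkc, the constant region of the antibody kappa chain, had 5.92, 2.64, 56.0 and 27.8 (log2 fold change 3.33 ± 0.38 (SE), adjusted p = 0.00501), but endothelial cells had 5.10, 8.09, 50.4 and 26.4 and microglia 2.40, 6.74, 68.6 and 148, so the same transcript was present in unrelated cells of the aged libraries. Pcdhb11 and Pcdhb14, members of the clustered protocadherins that neural cells use for recognition, had 3.81, 2.11, 21.6 and 22.3 and 20.1, 24.5, 38.4 and 39.3 (log2 2.91 and 0.79); they are named after their values were seen. Cped1, Gm19439 and AC149090.1 were also higher, with log2 fold changes of 1.05, 1.05 and 1.23.

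Pde10a, the phosphodiesterase that was higher here than in the Agt-expressing cells, had the clearest fall with age. Its levels were 167, 138, 59.7 and 54.5 CPM in the 4 mice (log2 fold change -1.41 ± 0.12 (SE), adjusted p = 6.99e-04), and endothelial cells had 10.7, 9.87, 7.79 and 5.71. Cells with at least 5 Pde10a UMIs numbered 58 and 51 in the adult mice and 7 and 7 in the aged mice. Cit, which encodes citron kinase, had levels of 54.3, 47.6, 26.4 and 17.0 (log2 fold change -1.22 ± 0.17 (SE), adjusted p = 0.0242). Kcnq1ot1, a noncoding RNA transcribed against Kcnq1, had 236, 247, 147 and 134 (log2 fold change -0.78 ± 0.09 (SE), adjusted p = 0.0071); whether reads were counted by strand is not given in the sources used here. Gem, a small GTPase gene (-1.09), the histone gene Hist1h4h (-1.02) and Gm11713 (-0.80) were also lower.

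Cd74, Tmsb10 and Ptgds had the largest falls, and most of their UMIs came from cells under 100 astrocyte UMIs per 10000. Those cells held 81.0%, 63.6% and 53.7% of the UMIs of the 3 genes. Without them the log2 fold changes were -0.28 in place of -1.89, -0.40 in place of -1.84 and -0.83 in place of -1.62, and of the 3 only Ptgds was then called (adjusted p = 0.754, 0.202 and 2.94e-07). Cd74 is known from antigen-presenting cells, and a single cell held 52.3% of its UMIs.

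**Figure D4:**
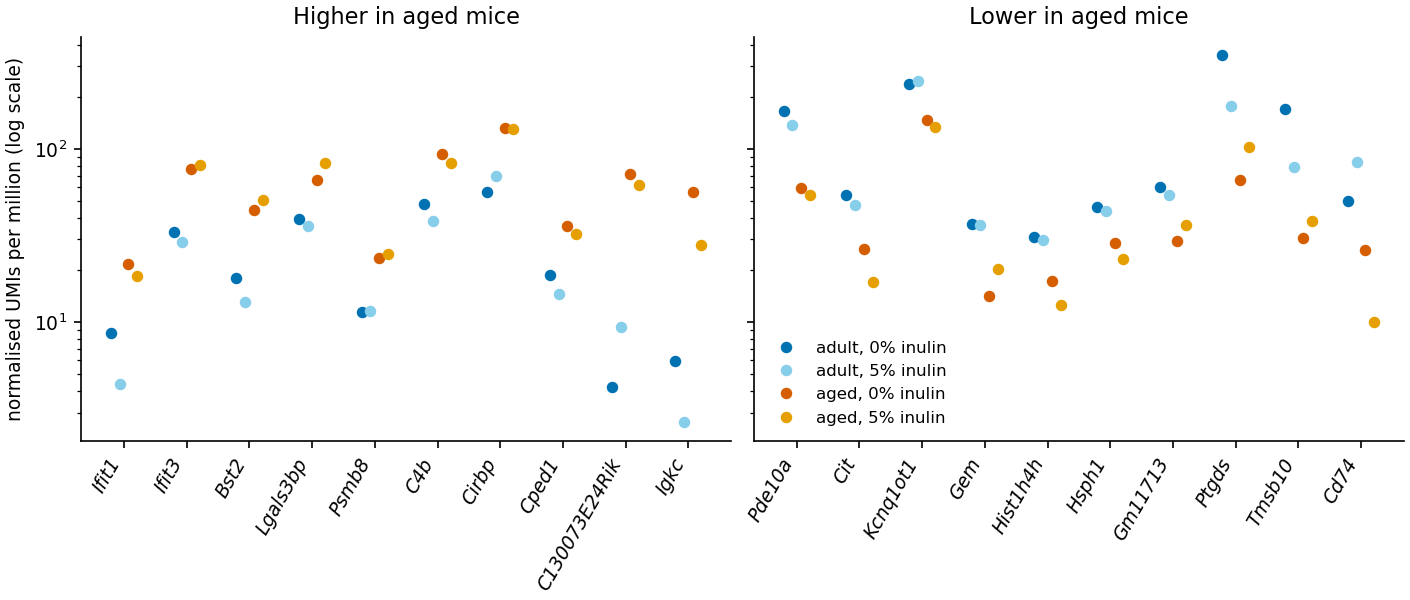
Levels of 20 genes in Gfap-low Agt-low astrocytes, in CPM on a log axis, with a point for each of the 4 mice. The left panel holds genes higher in the aged mice, such as Ifit3 and C4b, and the right panel genes lower in them, such as Pde10a; the ages do not overlap for any of the genes.

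Lists of core astrocyte functions had no gene called between the ages, which in lists of this size is near the 0.352% called among all genes. None was called among 9 genes of astrocyte identity (median 0.03), 12 of transmitter uptake and metabolism (-0.09), 16 of ion and water transport and gap junctions (0.01), 20 receptors (0.01), 24 of synapses and matrix (0.03), 24 of cholesterol synthesis (0.07), 22 of glycolysis, glycogen and lactate (0.00) and 18 of the circadian clock (-0.02). Slc7a10 had 466, 524, 495 and 489 CPM in the 4 mice (log2 fold change -0.01 ± 0.09 (SE), adjusted p = 0.98). The 7 telencephalic genes had a median of 0.00 and none was called. None of 23 immediate early genes was called either (median -0.23). Without the cells under 100 per 10000, 5 of 22 were lower, namely Fosl2, Nr4a1, Nr4a2, Nr4a3 and Klf4, and Ier3 was higher. In that fit, 87 of all 12765 genes were lower and 106 higher.

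**Figure D5:**
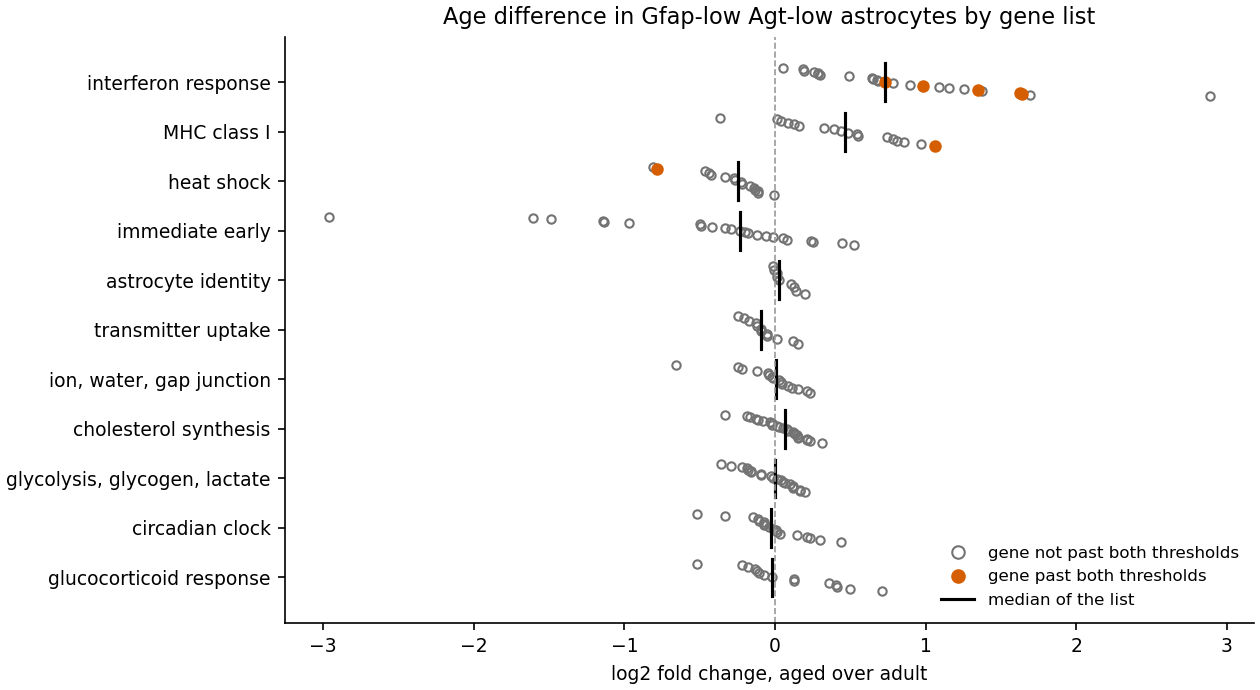
Log2 fold changes, aged over adult, of the genes of 11 lists in Gfap-low Agt-low astrocytes, with a point per gene, filled where the gene was called, and a bar at the median of the list; the dashed line is the median of all genes tested. All 25 interferon response genes lie above 0 and all 16 heat shock genes below 0, while the medians of the astrocyte function lists lie near 0.

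Genes on the lists of other cell types were 6 of the 47 calls, where 0.217% of all genes tested were called higher and 0.135% lower. Ctss and Trem2 were higher of 13 microglial genes, which summed to 254, 322, 374 and 315 CPM in the astrocytes and 241, 222, 333 and 279 in endothelial cells, with none at 0. C1qa, of the rule, and Ccl4, a chemokine gene named after its values were seen, were also called and are abundant in microglia: Ccl4 had 1.90, 2.11, 9.38 and 9.09 in the astrocytes, 2.58, 2.81, 10.7 and 11.8 in endothelial cells and 303, 274, 1109.6 and 983 in microglia. Acta2, Tagln and Myl9 were lower of 9 mural cell genes, which summed to 394, 393, 262 and 331, with Pdgfrb the most abundant and none at 0; from 100 per 10000 the sums were 288, 280, 255 and 221. A single cell held 30.4%, 37.4% and 23.0% of the UMIs of the 3 called genes, and Acta2 and Tagln were not called from 100 per 10000. Enpp2 was lower of 8 choroid plexus genes, none at 0, which summed to 7112, 5416, 3445 and 5885 through Ttr, and to 6977, 6116, 3099 and 4669 in endothelial cells. Enpp2 itself had 569, 472, 241 and 335 in the astrocytes, 610.2, 562, 252 and 308 in endothelial cells and 667, 605, 235 and 281 in microglia, lower in the aged mice in all 3 cell types. Oligodendrocyte genes, with Cnp the most abundant and Opalin at 0, summed to 404, 163, 143 and 151, and to 139, 138, 145 and 148 from 100 per 10000. Genes of olfactory ensheathing glia, with Npy the most abundant and none at 0, summed to 551, 67.5, 17.6 and 47.1 and to 17.5, 20.9, 14.3 and 23.4. The adult mouse on 0% inulin thus had the highest level of both lists among the 4 mice, and this excess was not seen from 100 per 10000. In summed RNA, fewer cells with a transcript and less of it per cell cannot be told apart.

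The diet comparison asked which genes differed between the 2 mice on 0% and the 2 on 5% inulin, with ages pooled. No gene of 13369 was called by edgeR (0.0%), and 270 had an unadjusted p under 0.05. DESeq2 called 3 genes. With edgeR, 43 genes were called without the adult and 100 without the aged mouse on 0% inulin, and 0 and 1 without the mice on 5% inulin. With age as a block, 39 genes were called, 35 of them lower on 5% inulin, and 31 without the cells under 100 per 10000 (9 higher and 22 lower). The age and diet fits used the same 4 mice, so they are not independent.

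The last comparison asked whether the age difference itself was unlike that of the other astrocytes. Against the Agt-expressing astrocytes, 13 of 14011 genes had a different age effect (0.0928%). The clearest named gene was Lhx2, with means of 262 and 264 CPM in the adult and aged Gfap-low Agt-low cells and 64.6 and 111 in the Agt-expressing cells, a difference in log2 fold change of -0.78 ± 0.12 (SE, adjusted p = 0.0184). The means of the Gfap-low Agt-low cells were thus close to each other, while those of the Agt-expressing cells were further apart. Lhx2 was called in only 6 of 9 alternatives, and over all 9 the difference was from -0.86 to -0.68. Against the Gfap-high astrocytes, 25 of 12578 genes differed (0.199%), among them Serpina3n, an acute phase protease inhibitor gene, which was at 7.36, 4.37, 4.39 and 4.20 in the Gfap-low Agt-low and 14.2, 24.9, 146 and 176 in the Gfap-high cells. Its call was lost in 7 of 9 alternatives, among them the fit from 100 per 10000 and that without the aged mouse on 5% inulin (adjusted p = 1.0 in both). Without the adult mouse on 0% or on 5% inulin the first count was 78 or 211 and the second 16 or 31, without the aged mouse on 0% inulin both were 18, and without the aged mouse on 5% inulin they were 5 and 1. DESeq2 called no gene in either comparison. None of the 5 interferon genes called by age was called as different between the classes in either test.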

How the data were processed

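Droplet libraries of whole brain from 4 mice were counted by the submitters with Cell Ranger 3.1.0 on GRCm38, per the file headers and the submitters' notes. The authors deposited UMI counts, whole numbers in 1 matrix of 55573 genes per mouse, and these counts were used as deposited. Cells were chosen by the rule given above, with the upper limits on UMIs and mitochondrial share at 3 median absolute deviations; no doublet caller was run. UMIs were summed per mouse and class, and tested with the edgeR quasi-likelihood test (edgeR 4.0.16, TMM, filterByExpr, R 4.3.3) with Benjamini-Hochberg adjustment over all genes passing the filter. DESeq2 1.42.0 was an alternative. Between classes, the mouse was a block and the rule's genes were left out of the fit. The replicates are separate mice. Alternatives were size factors, no filter, leaving out each mouse, the other factor as a block, thinning to 2000 UMIs, other limits on Gfap, Agt, depth and astrocyte genes, and a robust fit; those with astrocyte genes from 100 per 10000 or strict limits on other cell types without Ttr were added after seeing the data. The members and the 38 gene lists were chosen with earlier results of these data known. Genes named are the 10 largest changes by age in each direction (5 between classes) among calls with a mean of at least 20 CPM. They were ranked only among calls whose groups do not overlap. The ranking by age left out genes on the lists of other cell types. Called list members are also named, and the rest are said to be named after their values were seen. Scripts were tested on simulated data. Some genes of the lists are counted but not reported here by name.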

Additional observations from a re-analysis of the deposited data

Results flagged for a closer look

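Differences in the age effect between classes were tested as an interaction of class and age. Against the Agt-expressing astrocytes, the difference in log2 fold change, Gfap-low Agt-low less Agt-expressing, was 3.74 for Retnlg, a gene known from neutrophils, 0.92 for 6330403K07Rik, 0.79 for Olig1, a glial transcription factor gene, and 0.73 for Lgi1, which encodes a secreted synaptic protein. It was -1.71 for Fxyd5, -0.78 for Lhx2, -0.76 for Naaa and -0.70 for Ramp2. A single cell held 28.4% of the members' Retnlg UMIs, and its level in the Gfap-low Agt-low cells was 25.6, 66.7, 142.9 and 11.9 CPM. Cells with under 100 astrocyte UMIs per 10000 held 80.1% of the UMIs of 6330403K07Rik and 77.1% of those of Fxyd5; without them the differences were -0.45 and -0.99 (adjusted p = 0.811 and 0.182), and Olig1 and Ramp2, at 0.57 and -0.57, were within the 1.5-fold limit, while the other 4 were called.

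Against the Gfap-high astrocytes the difference was 8.75 for Crym, 2.95 for Serpinb1a, 2.18 for 4833420G17Rik, 0.94 for Thrsp, -4.68 for Myh11, -4.34 for Tpm2, -3.36 for Serpina3n, -2.27 for Fxyd6 and -2.03 for Cald1. The Gfap-high cells were 12 to 33 per mouse, and Crym was at 0 in 3 of the 4 mice there, so the fitted size of its difference depends on the count added before taking logs. From cells of at least 100 astrocyte UMIs per 10000, none of the 9 genes was called (adjusted p from 0.203 to 1.0), and the difference for Tpm2 was -0.52.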

How the results depend on the processing

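With 2 mice per age, leaving out a mouse leaves a lone sample assumed to vary like the rest, and adult and aged mice also differed in origin. No replicate number in the labels pairs mice; diet, which matches an adult with an aged mouse, was a block in an alternative given below, and the class comparisons used the mouse as a block throughout. The planned strict limit of 3 Ttr UMIs left no cell, since the lowest member had 5. All shares kept their direction by age, although in the share of gated astrocytes the ages overlapped under 3 alternatives, and the exact test cannot fall below 0.33.

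The 47 age calls became 20 with DESeq2, 453 without a filter, 161 with diet as a block (51 higher and 110 lower), 93 with a robust fit, 20 with limits in proportion to depth, 149 without the Gfap and Agt limits, 12 with at most 1 Gfap UMI, 21 with strict limits and 193 from 100 astrocyte UMIs per 10000; leaving out a mouse gave 0 to 541. Without a filter, 131 of the 453 were higher, against 29 of 47. The diet calls, 0 in the main fit, were 3 with DESeq2, 157 without a filter, 39 with age as a block, 2 with thinning and 31 with age as a block from 100 per 10000; leaving out a mouse gave 0 to 100. The 1544 calls against Agt-expressing cells became 1007 with DESeq2, and the 1506 against Gfap-high cells 896 with DESeq2 and 364 with thinning. The split of higher and lower against Agt-expressing cells was 811 and 733, and 602 and 837 from 100 per 10000. Against Gfap-high cells it was 781 and 725, 288 and 608 with DESeq2, and 262 and 102 with thinning. The 13 differences of the age effect from Agt-expressing cells became 0 with DESeq2, 115 without a filter, 28 with proportional limits and 49 from 100 per 10000, and 5 to 211 without a mouse. The 25 from Gfap-high cells became 0 with DESeq2, 1 with thinning, 14 with proportional limits and 9 from 100 per 10000, and 1 to 31 without a mouse.

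Some single genes reversed. By age, Cd74 had a log2 fold change of 0.22 without the Gfap and Agt limits. Against Gfap-high cells, Itih3 was at 0.0845 with proportional limits. Among differences of the age effect, 6330403K07Rik was at -0.45, Crym at -0.43, Myh11 at 6.15 and Cald1 at 0.00184 from 100 per 10000, and Thrsp at -1.30 with proportional limits; with a mouse left out, Crym ranged from -0.33 to 9.47, Myh11 from -11.28 to 6.00 and Cald1 from -2.93 to 0.42. The causes were not tested. Of 374 values for 22 genes named by age, 271 kept direction and call, 102 kept direction only and 1 reversed.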

Other observations

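Neuroblast genes were called in the Gfap-low Agt-low astrocytes in numbers the report has not described. Against the Agt-expressing astrocytes, 3 of 5 tested neuroblast genes were higher and none lower (median 0.89), where 5.79% of all genes were higher, namely Sox11, Igfbpl1 and Dcx, the last encoding a microtubule protein of migrating neurons. Sox11 had levels of 31.6, 48.3, 31.9 and 38.4 CPM in the Gfap-low Agt-low cells of the 4 mice and 17.3, 22.9, 18.9 and 23.0 in the Agt-expressing cells (log2 fold change 0.89 ± 0.10 (SE), adjusted p = 6.88e-06). Dcx was at 2.78, 5.71, 2.58 and 2.68 against 0.982, 3.45, 0.686 and 0.687, and its UMIs came from 18 members. The same 3 genes were called higher from cells of at least 100 astrocyte UMIs per 10000. Summed over the 6 listed genes, the level was 43.6, 74.6, 46.9 and 52.3 CPM in the members and 38.1, 23.2, 21.4 and 25.5 in endothelial cells, with Sox11 the most abundant in the members. Lists of other cells moved too: of 6 neuron genes Meg3, Snhg11 and Tubb3 were higher and Snap25 and Nefl lower, of 7 ependymal genes Dynlrb2, Cfap126 and Mia were higher, and Pdgfra and Cldn11, known from oligodendrocyte precursors and oligodendrocytes, were higher. From 100 per 10000, Meg3 and Tubb3 were still higher, and no gene of the ependymal, oligodendrocyte and precursor lists was. The 8 neuron genes summed to 101, 107, 101 and 135 CPM in the members, with Meg3 the most abundant and none at 0, and to 269, 223, 354 and 319.9 in endothelial cells, and their part in these results was not tested.

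Among 24 genes of synapses and extracellular matrix, 7 were higher in the Gfap-low Agt-low than in the Agt-expressing cells (Chrdl1, Thbs1, Thbs4, Gpc6, Mertk, Ptn and Cspg5) and 4 lower (Sparc, Sparcl1, Thbs2 and Mdk), with a median of 0.03, where 11.0% of all genes were called; from 100 per 10000 Thbs1 (0.46) was not called. Mertk, which encodes a receptor for engulfment, had levels of 351, 407, 449 and 391 against 200.3, 235, 294 and 249.5 (log2 fold change 0.72 ± 0.05 (SE), adjusted p = 1.39e-07). Ptn, a heparin-binding growth factor gene, had 3624, 3042, 2778 and 2942 against 1721, 1956, 1954 and 1971 (log2 fold change 0.70 ± 0.07 (SE), adjusted p = 1.96e-06), and the related Mdk had 144, 126, 149.5 and 163 against 264, 244, 254 and 265 (log2 fold change -0.83 ± 0.06 (SE), adjusted p = 8.44e-08). In the lists of lipid transport and storage, Lrp4 was higher and Scd1 and Fads2 lower of 23 tested, near the 11.0% called among all genes; Fads2 (-0.58) was within the fold limit from 100 per 10000.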
